A study of Mus musculus with 20 samples.

Results

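This account follows 9 genes for skeletal muscle proteins in mouse heart ventricle: Casq1, Atp2a1, Ryr1, Actn3, Tnni2, Tnnt3, Tnnc2, Pvalb and Mylpf. They are 9 of the 21705 genes in the deposited expression table. They were picked by name as isoforms best known from skeletal muscle, and the set was chosen by a measured value of these same data: Casq1 was lower in the knockout hearts given rapamycin than in the control hearts given rapamycin. Values that rest on the knockout rapamycin libraries are therefore given as a description, with no test, and so is Casq1 wherever the control rapamycin libraries enter.

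The study set Acsl1H-/- mice beside Acsl1flox/flox littermates, all male, on a strain background given as C57Bl/J6. Acsl1 encodes an enzyme that couples long-chain fatty acids to coenzyme A, and the labels name neither the Cre line nor its promoter. Both genotypes, the controls included, received tamoxifen at 75 mg/kg on 4 days at an age of 6 to 8 weeks, and tissue was taken 2 weeks after induction. Within each genotype, mice were injected daily for 2 weeks with rapamycin, an inhibitor of the mTOR kinase, at 1 mg/kg or with its vehicle. This gave 4 groups of 5 libraries of poly(A) RNA, called here control vehicle, knockout vehicle, control rapamycin and knockout rapamycin, numbered 1 to 5 as in the sample titles. The titles number replicates without saying what separates them, so that p-values measure the spread between these libraries. Library totals were equivalent to about 11476821 to 21071271 reads by the smallest value steps, and 1 read was worth 1.12 to 2.32 expression units. Acsl1 itself stood at 10084 ± 3166 (SD, n = 5) in control vehicle, 12639 ± 2346 in control rapamycin, 1257 ± 381 in knockout vehicle and 1224 ± 520 in knockout rapamycin hearts, lower in every knockout library as labelled (-3.00 under vehicle, limma adjusted p = 3.67e-06). Control vehicle libraries 1 and 3 stood apart from the rest: a score that sets long against short transcripts was -1.05 and -1.17 there, against -0.42 to 0.56 in the other 18 libraries.

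Striated muscle builds its contractile and calcium-handling machinery from gene families in which one member serves the heart and another serves fast skeletal fibres. Calcium leaves the sarcoplasmic reticulum through ryanodine receptors, is held there by calsequestrin and is pumped back by SERCA pumps. On the thin filament, a troponin complex of inhibitory, tropomyosin-binding and calcium-binding subunits turns the calcium signal into contraction. The skeletal and heart members of these families are separate genes, with a separate promoter for each.

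RefSeq promoter sequences (250 bases before to 50 bases after the annotated start, build GRCm38.p6) were found for 6 of the 9 genes. The promoters of Casq1 and of its heart counterpart Casq2 are shown because Casq1 was the member with the highest level and the one on which the set was chosen. That of Mylpf is shown because Mylpf varied together with Tnni2, which has no entry. Capitals mark E-boxes, the letters CANNTG read by myogenic bHLH factors, and the A/T-rich MEF2 motif, each searched on both strands. The Casq1 window lies on the minus strand at chr1:172219846-172220145, the Casq2 window on the plus strand at chr3:102086165-102086464 and the Mylpf window on the plus strand at chr7:127211358-127211657.
Casq1: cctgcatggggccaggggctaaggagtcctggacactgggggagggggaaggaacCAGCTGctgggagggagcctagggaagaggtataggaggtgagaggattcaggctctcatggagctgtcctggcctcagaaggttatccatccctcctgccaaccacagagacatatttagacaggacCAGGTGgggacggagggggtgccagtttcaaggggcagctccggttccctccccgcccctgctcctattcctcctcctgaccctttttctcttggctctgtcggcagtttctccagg
Casq2: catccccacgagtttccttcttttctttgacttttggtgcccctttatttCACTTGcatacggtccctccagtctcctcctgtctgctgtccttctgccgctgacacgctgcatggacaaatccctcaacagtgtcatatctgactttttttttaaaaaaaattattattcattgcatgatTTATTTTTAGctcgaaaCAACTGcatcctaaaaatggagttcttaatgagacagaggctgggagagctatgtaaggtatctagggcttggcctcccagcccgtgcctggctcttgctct
Mylpf: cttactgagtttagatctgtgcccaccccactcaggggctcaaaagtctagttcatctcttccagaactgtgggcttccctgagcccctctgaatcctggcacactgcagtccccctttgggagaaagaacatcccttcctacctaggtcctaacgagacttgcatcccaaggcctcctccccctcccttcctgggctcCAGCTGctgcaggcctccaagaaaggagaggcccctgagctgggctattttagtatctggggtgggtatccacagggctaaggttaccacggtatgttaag

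The Casq1 window held 2 E-boxes, beginning at -195 and -67 from the start, and no MEF2 match. The Casq2 window held 2 E-boxes, at -200 and -52, and a MEF2 match at -69. A window of the skeletal gene Pvalb, not shown, also held a MEF2 match, at -180. Mylpf had 1 E-box, at -51, with the same core CAGCTG as the Casq1 E-box at -195 and the Atp2a1 E-box at -55. An E-box is common: 72.3% of 32851 RefSeq promoter windows of this length held at least 1, whereas 3.19% held the MEF2 motif. A match describes letters and was not tested as a binding site.

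Casq1, the calsequestrin of fast fibres that buffers calcium at the release sites of the sarcoplasmic reticulum, was the most abundant of the 9 genes. Values are the authors' upper-quartile-normalized RSEM estimates, in which the 75th percentile of the genes above 0 is set near 1000. Per kilobase of transcript, Casq1 averaged 145 units over the 20 libraries. Tnni2 followed at 60.1, Mylpf at 23.7, Actn3 at 19.4, Atp2a1 at 14.2, Pvalb at 12.4, Tnnc2 at 7.25, Tnnt3 at 2.99 and Ryr1 at 0.284 units per kilobase. In this order Casq1 and Tnni2, Mylpf and Actn3, Atp2a1 and Pvalb, Pvalb and Tnnc2, and Tnnc2 and Tnnt3 differed by less than the larger SD of the pair over libraries, which was 106 for Casq1 and 15.1 units per kilobase for Pvalb. In reads, the median library held 169.5 for Casq1, 34 for Actn3, 30.8 for Atp2a1, 24 for Tnni2, 10.5 for Mylpf, 4 for Pvalb, 3 for Ryr1, 2.5 for Tnnc2 and 2 for Tnnt3.

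**Figure D1:**
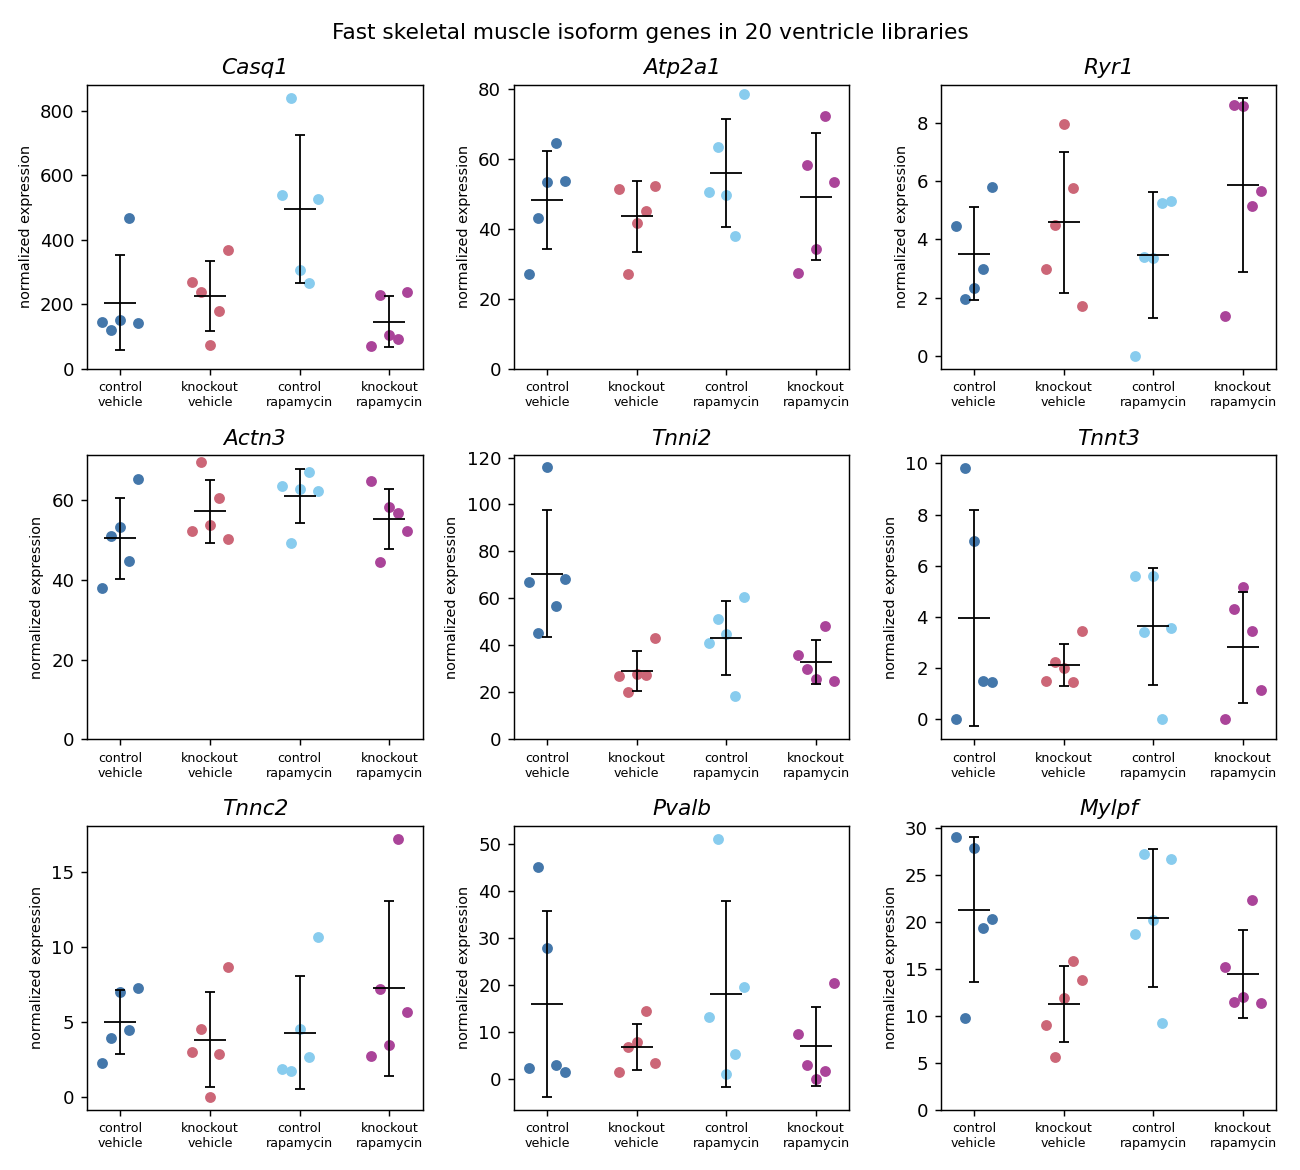
Normalized expression (linear axis, arbitrary units) of each of the 9 genes in every library, by group; points are libraries in the order 1 to 5, horizontal marks are group means and bars are ± 1 SD (n = 5). Casq1 spans 70.2 to 840 units, while Ryr1 and Tnnt3 stay under 10 units in every library.

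Each skeletal gene was a small part of its family beside the heart member. Per length, Casq1 was 1.32% of Casq2, the calsequestrin of cardiomyocytes, on average over the 20 libraries (range 0.351% to 4.10%). Actn3, the alpha-actinin of fast fibre Z-discs, was 0.119% of Actn2. Tnni2, the inhibitory troponin subunit of fast fibres, was 0.0329% of Tnni3. Atp2a1, which encodes the fast-fibre pump SERCA1, was 0.0155% of Atp2a2, and the skeletal calcium release channel Ryr1 was 0.0147% of Ryr2. Tnnc2, the calcium-binding troponin subunit of fast fibres, was 0.00725% of Tnnc1. Mylpf, the regulatory light chain of fast myosin, was 0.00448% of Myl2, and Tnnt3, the tropomyosin-binding troponin subunit, was 0.00283% of Tnnt2. Pvalb, the parvalbumin that binds calcium in fast fibres, was given no heart counterpart.

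**Figure D2:**
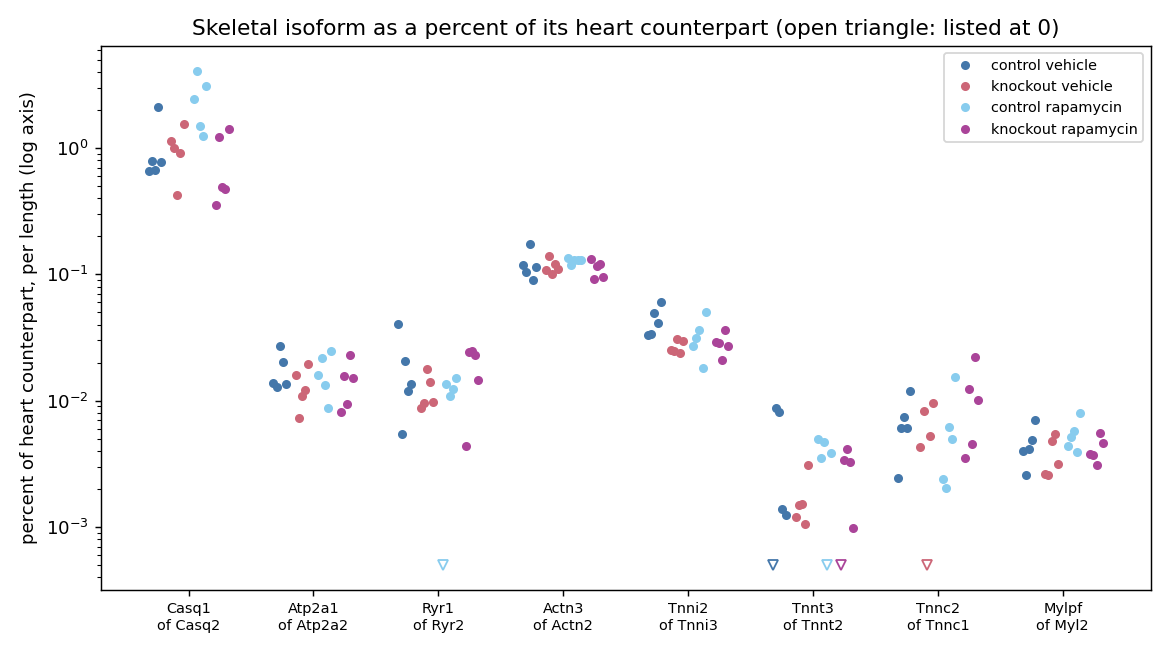
Per-length level of each skeletal gene as a percent of its heart counterpart in every library (log axis), coloured by group; open triangles mark libraries in which the skeletal gene is listed at 0. Casq1 lies between 0.351% and 4.10% of Casq2, and the other 7 genes lie at or under 0.174% of their counterparts.

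Reads that match both genes of a pair can be split between them. The longest run of identical bases shared with the counterpart was 51 for Actn3 with Actn2, 44 for Atp2a1 with Atp2a2, 35 for Ryr1 with Ryr2 and 25 for Casq1 with Casq2. It was 21 for Tnnc2, 20 for Mylpf, 17 for Tnnt3 and 14 for Tnni2. The read length is not given in the sources used here, and how far RSEM moved reads between these pairs was not tested. The Actn3 and Atp2a1 levels are uncertain to that extent.

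Other skeletal muscle genes did not form one complete set in these hearts. Of 15 fast-fibre genes listed beside the 9, the sodium channel Scn4a averaged 817 units, the light chain Myl1 814, the calcium channel subunit Cacna1s 393 and the myosin-binding protein Mybpc2 346. These units are not divided by transcript length. Per kilobase, Myl1 averaged 864, Scn4a 124, Mybpc2 95.7 and Cacna1s 64.0 units, beside 256 for the myosin heavy chain Myh1. In contrast, Myh2, Ampd1, Cacng1, Smtnl1, Stac3 and Mylk2 each averaged under 5 units. Myh1 averaged 1520 units, which was 0.219% to 0.358% of Myh6 in every library, and Myh1 and Myh6 share a run of 59 identical bases. All 9 genes of a list of muscle precursors and end plates averaged under 5 units, and Pax7, Myf5 and Chrnd were listed at 0 in all 20 libraries. Summed over that list, the level ran from 4.08 to 9.49 in control vehicle, 6.60 to 13.8 in knockout vehicle, 1.31 to 13.6 in control rapamycin and 6.89 to 17.2 in knockout rapamycin hearts. The 15 fast-fibre genes summed to 3030 to 4638, 3256 to 4737, 3832 to 4983 and 3225 to 4613 units in the same order of groups, which overlap.

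**Figure D3:**
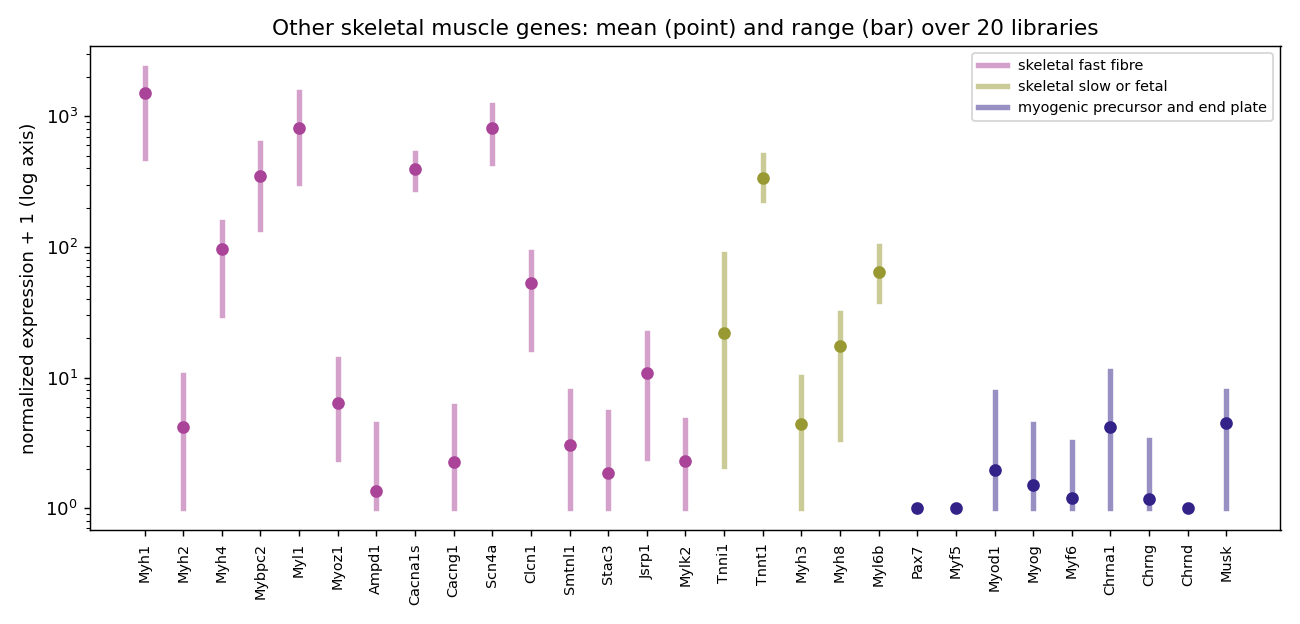
Mean (point) and range over 20 libraries (bar) of normalized expression plus 1 (log axis) for 15 fast-fibre genes, 5 slow or fetal skeletal genes and 9 precursor or end-plate genes. Myh1, Scn4a and Myl1 average 1520, 817 and 814 units, not divided by transcript length, while Pax7, Myf5 and Chrnd are listed at 0 throughout.

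The first comparison asks how these genes differed between knockout and control hearts without rapamycin. Any effect of the Cre itself, which the labels do not name, cannot be told apart here from loss of Acsl1. Tnni2 was lower in the knockout vehicle hearts, in which every library lay below every control vehicle library in scaled units, but it did not pass the test over all genes. Mylpf was lower in the mean with overlapping groups. Casq1, Atp2a1, Actn3 and Pvalb differed by less than the spread between libraries. In bulk tissue, fewer cells of a type and less RNA per cell cannot be told apart.

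Of the 9 genes, 6 had at least 10 units in at least 5 libraries and were tested by limma on log2(value + 1), with p-values adjusted by the Benjamini-Hochberg method over 13548 genes. None of the 6 was called at an adjusted p under 0.05, where the background was 0.244% of all genes tested (33 genes; 0.0443% called lower in the knockout). At an unadjusted p under 0.05, Tnni2 and Mylpf passed, beside 31.8% of all genes. The median difference of the 6 was -0.25 on the log2 scale, against 0.07 over all genes tested.

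Tnni2 stood at 67.0, 45.1, 116, 56.6 and 68.2 units in control vehicle libraries 1 to 5. In knockout vehicle libraries 1 to 5 it stood at 26.9, 20.2, 27.8, 27.4 and 43.3 units. The highest knockout library, number 5, was just under the lowest control library, number 2, so the groups did not overlap in units. In reads the order was reversed, with 25 in knockout vehicle 5 and 23 in control vehicle 2. There 1 read was worth 1.73 and 1.96 units, so this separation rests on the scaling of the libraries. A full separation with the knockout lower was seen in 0.871% of all genes tested, and one in either direction in 2.32%.

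The fitted Tnni2 difference was -1.22 on the log2 scale (SE 0.30, 95% interval -1.85 to -0.59), with a limma adjusted p of 0.0750. The exact two-sided permutation test, unadjusted, gave p = 0.00794, the smallest that 5 against 5 libraries allow. It was run only for Tnni2 and Mylpf, which had the smallest limma p of the tested members in this comparison. Full separation of the groups fixes this permutation p, so it adds nothing to the separation given above. Within the 4 sequencing pools that the labels name, each with 1 or 2 libraries per group, the difference was -1.16, -1.12, -1.71 and -1.29. Leaving out control vehicle 4, control vehicle 5 or knockout vehicle 5 brought the limma adjusted p to 0.0486, 0.0323 and 0.0360, so that 1 library decides the call. In those fits 2.53%, 22.8% and 18.9% of all genes were called, beside 0.244% with every library. Over all alternatives it ran from 0.0323 to 0.660.

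Tnni2 has one of the shortest transcripts of the set, 732 bases. Without control vehicle libraries 1 and 3, which lean to short transcripts, its difference was -0.96 (limma adjusted p = 0.660). With the long-minus-short score as a covariate it was -0.73 (limma adjusted p = 0.396). Tnni3, the heart inhibitory subunit, was also lower in the knockout vehicle hearts, by a fitted difference of -0.57 (SE 0.20, limma adjusted p = 0.104). Relative to Tnni3 per length, Tnni2 was 0.0437% ± 0.0114 (SD, n = 5) in control vehicle and 0.0268% ± 0.0030 in knockout vehicle hearts. The lowest control vehicle library was at 0.0331% and the highest knockout vehicle library at 0.0306%, so this ratio did not overlap either. It reuses the Tnni2 values and is not separate support. The ratios of the other pairs overlapped between these groups, and no share over all genes was computed for ratios.

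Mylpf stood at 29.0, 9.81, 27.8, 19.4 and 20.3 units in control vehicle and at 8.98, 5.62, 11.9, 15.8 and 13.8 units in knockout vehicle hearts. Control vehicle 2 lay among the knockout libraries, and the other 4 control libraries lay above all of them. The fitted difference was -0.85 (SE 0.35, limma adjusted p = 0.119). The exact two-sided permutation test gave p = 0.0476, unadjusted. Mylpf was among the members of smallest limma p for which alone that test was run, so it is not separate support. The Mylpf difference was -0.34 with the long-minus-short covariate and -0.52 without control vehicle 1 and 3, and the Mylpf transcript measures 709.5 bases. Myl2, its heart counterpart, showed a difference of -0.63 (SE 0.26, limma adjusted p = 0.123).

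Casq1 stood at 145, 122, 151, 466 and 141 units in control vehicle and at 269, 238, 73.6, 180 and 367 units in knockout vehicle hearts. The groups overlapped, with control vehicle 4 the highest of all 10 libraries. The difference was 0.17 on the log2 scale (SE 0.45, 95% interval -0.77 to 1.11; limma adjusted p = 0.810). Casq2 differed by 0.11 (SE 0.13, limma adjusted p = 0.544).

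Atp2a1 ranged from 27.1 to 64.5 units in control vehicle and from 27.1 to 52.5 in knockout vehicle hearts, a difference of -0.13 (SE 0.28, limma adjusted p = 0.768). Its counterpart Atp2a2, the pump of the heart, differed by 0.29 (SE 0.19, limma adjusted p = 0.278). Actn3 varied least of the 9, with a coefficient of variation of 15.2% over the 20 libraries. It ranged from 37.9 to 65.3 in control vehicle and from 50.2 to 69.7 in knockout vehicle hearts, a difference of 0.19 (SE 0.16, limma adjusted p = 0.409).

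Pvalb rested on single libraries. It stood at 2.23, 45.1, 27.8, 2.98 and 1.45 units in control vehicle and at 1.497, 6.74, 7.95, 14.4 and 3.46 in knockout vehicle hearts. Libraries 2 and 3 carried the control mean, and the difference of -0.36 (SE 0.96, limma adjusted p = 0.806) had an interval from -2.38 to 1.65. Without control vehicle 2 it was 0.25, and without control vehicle 3 it was 0.08.

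**Figure D4:**
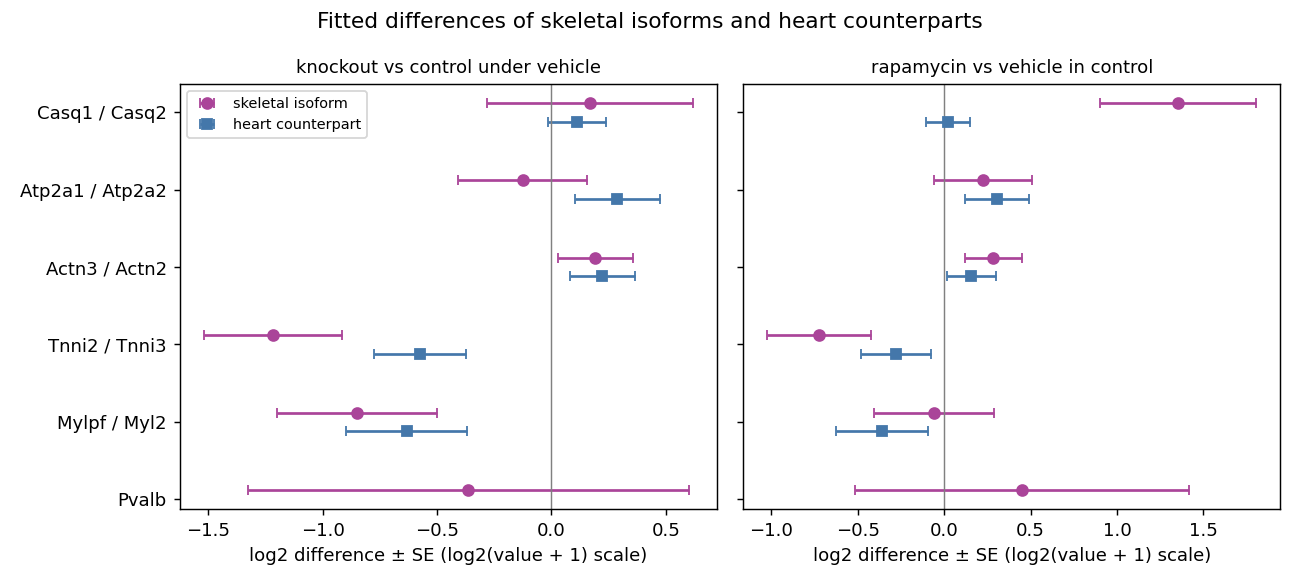
Fitted log2 differences ± SE (log2(value + 1) scale) for the 6 skeletal genes with enough signal to test and for their heart counterparts, knockout minus control under vehicle on the left and rapamycin minus vehicle in control hearts on the right. On the left Tnni2 lies at -1.22 and its counterpart Tnni3 at -0.57; on the right Casq1, shown as a description, lies at 1.35 and Casq2 at 0.02.

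Among the listed skeletal genes in the same comparison, none of the 8 tested fast-fibre genes was called in either direction (4 higher, 4 lower, median 0.002). The smallest adjusted p among them was that of Myh4, a fast myosin heavy chain. Myh4 was higher in the knockout by 0.96 (SE 0.32, limma adjusted p = 0.0986). Myh1 was higher by 0.82 (SE 0.35, limma adjusted p = 0.130), and both genes had overlapping groups. Myh6 was also higher in the knockout, by 0.73 (SE 0.33, limma adjusted p = 0.142). Myh4 and Myh1 share runs of 56 and 59 identical bases with Myh6, and how far reads were split between them was not tested. The Myh4 and Myh1 transcripts measure 6016 and 5938 bases. The part of the libraries' length lean in their differences was not tested. Clcn1, the chloride channel of skeletal fibres, was between 58.0 and 73.0 units in control vehicle and between 31.8 and 49.0 in knockout vehicle hearts. These groups did not overlap, as in 2.32% of all genes tested, and the difference was -0.73 (SE 0.28, limma adjusted p = 0.111). Myl6b, a light chain of slow fibres, also did not overlap, with a difference of -0.74 (SE 0.21, limma adjusted p = 0.0862). Clcn1, Myh4 and Myl6b, like Mybpc2 and Cacna1s elsewhere, were singled out after their values were seen. None of the 4 tested slow or fetal genes was called, and none of 19 tested genes of the calcium release unit, with 13 higher and 6 lower in the knockout.

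The second comparison asks what rapamycin did in control hearts. No gene of the 13548 was called by limma at an adjusted p under 0.05, a background of 0%, with none of the 5 testable members called. At an unadjusted p under 0.05, 14.9% of all genes passed and Tnni2 was the only one of the 5. The median over the 6 genes with values, Casq1 included as a description, was 0.25, against 0.07 over all genes tested.

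Tnni2 in control rapamycin libraries 1 to 5 stood at 41.1, 51.0, 44.9, 18.4 and 60.5 units, within and below the range of the control vehicle libraries. The difference was -0.72 (SE 0.30, limma adjusted p = 0.330), and it was -0.46 without control vehicle 1 and 3 and -0.36 with the long-minus-short covariate. Full separation of the groups was seen in 1.46% of all genes tested (0.590% lower under rapamycin), and in none of the 6 members. Mylpf stood at 18.7, 27.2, 20.2, 9.20 and 26.7 units, a difference of -0.06 (SE 0.35, limma adjusted p = 0.937). Control rapamycin 4 was the lowest library for both genes.

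Actn3 differed by 0.28 (SE 0.16, limma adjusted p = 0.370) and Atp2a1 by 0.22 (SE 0.28, limma adjusted p = 0.662). Pvalb stood at 13.1, 51.0, 1.12, 5.26 and 19.6 units and differed by 0.45 (SE 0.96, limma adjusted p = 0.806). Without control rapamycin 2, its highest library, the Pvalb difference was -0.09. Of the 8 tested fast-fibre genes, 4 were higher and 4 lower, with none called. Mybpc2 differed by 1.09 (SE 0.38, limma adjusted p = 0.328). None of the 4 tested slow or fetal genes and none of the 19 of the calcium release unit was called.

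Casq1 carried the pattern for which the set was chosen, given here without a test. In control rapamycin libraries 1 to 5 it stood at 538, 840, 306, 267 and 527 units. In knockout rapamycin libraries 1 to 5 it stood at 70.2, 228, 105, 91.1 and 236 units. The lowest control library, 267, was above the highest knockout library, 236, so the groups did not overlap. Among all genes tested, 0.546% were separated in this direction and 0.878% in either direction, which is a background for a gene that was picked for it.

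The group means of Casq1 were 496 ± 229 (SD, n = 5) in control rapamycin, 226 ± 109 in knockout vehicle, 205 ± 147 in control vehicle and 146 ± 79.6 in knockout rapamycin hearts. The last 3 overlap one another, and the control rapamycin range overlaps those of both vehicle groups. The fitted difference of knockout and control under rapamycin was -1.81 on the log2 scale (SE 0.45), and within the 4 pools it was -1.24, -2.74, -1.54 and -1.84. Rapamycin against vehicle gave 1.35 in control hearts (SE 0.45) and -0.62 in knockout hearts (SE 0.45). These 3 differences share libraries and are not independent. Relative to Casq2 per length, Casq1 was 2.48% ± 1.17 in control rapamycin and 0.790% ± 0.493 in knockout rapamycin hearts, with Casq2 itself differing by -0.07 (SE 0.13).

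The other members did not repeat the Casq1 separation between the rapamycin groups. Pvalb differed by -1.28 (SE 0.96), Mylpf by -0.43 (SE 0.35), Tnni2 by -0.32 (SE 0.30), Atp2a1 by -0.23 (SE 0.28) and Actn3 by -0.14 (SE 0.16), all with overlapping groups and none tested. In knockout rapamycin libraries 1 to 5, Tnni2 stood at 35.8, 30.1, 25.8, 48.1 and 25 units and Mylpf at 15.2, 11.5, 12.03, 22.3 and 11.4. Pvalb stood there at 9.64, 2.87, 0, 1.72 and 20.5 units. Atp2a1 ranged from 38.1 to 78.7 in control rapamycin and from 27.5 to 72.3 in knockout rapamycin hearts, and Actn3 from 49.3 to 67.0 and from 44.5 to 64.7.

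Between rapamycin and vehicle in knockout hearts, the differences of these members were 0.37 for Mylpf, 0.17 for Tnni2, 0.12 for Atp2a1, -0.05 for Actn3 and -0.46 for Pvalb, again with overlapping groups. Knockout rapamycin 4 was the highest library of its group for Tnni2, Mylpf, Atp2a1 and Tnnc2, but not for Casq1, where it was the second lowest.

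Casq1 varied with Myl7 and with some other transcripts of the atrium. Myl7, the atrial myosin light chain, stood at 35.7, 7.85, 27.8, 356 and 17.4 units in control vehicle libraries 1 to 5 and at 7352, 1802, 3.98, 9549 and 1538 units in knockout vehicle libraries. In control rapamycin libraries it stood at 9675, 7668, 10.1, 11.8 and 753 units, and in knockout rapamycin libraries at 1211, 10265, 85.9, 25.8 and 884 units. Control vehicle 4, the highest of its group for Casq1, was also the highest of its group for Myl7, and knockout vehicle 3 was the lowest of its group for both. Other libraries departed from this, among them knockout rapamycin 1, with the lowest Casq1 of the series at 70.2 units and Myl7 at 1211. Knockout vehicle 4 had the highest Myl7 of its group with Casq1 at 180 units, the second lowest there. Knockout vehicle 5 had the highest Casq1 of its group, 367 units, with Myl7 at 1538.

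As deviations from the group means over the 20 libraries, Casq1 and Myl7 had r = 0.76 (Spearman's rho 0.73), and r was 0.67 without the 2 libraries farthest out in Myl7. This is a description with no p, since Myl7 was looked up after the Casq1 values were seen, as number 11 of 10337 genes in likeness. Sln, Myl4 and Nppa had r = 0.73, 0.72 and 0.60 with Casq1, as numbers 35, 36 and 169. For Bmp10, Gja5 and Hcn4 no r is given. The 7 genes of the atrial and conduction list summed to 1738 to 6308 units in control vehicle, 4517 to 64264 in knockout vehicle, 1953 to 35268 in control rapamycin and 8565 to 59601 in knockout rapamycin hearts. All 6 tested genes of that list were higher in the mean in both tested comparisons, with none called.

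With Myl7 as a covariate, the Casq1 difference under rapamycin was -1.86, beside -1.81 without it. The difference of rapamycin and vehicle in control hearts was 0.82, beside 1.35. Knockout against control under vehicle turned from 0.17 to -0.58 (limma adjusted p = 0.239). The part of atrial tissue in the Casq1 values was not tested.

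**Figure D5:**
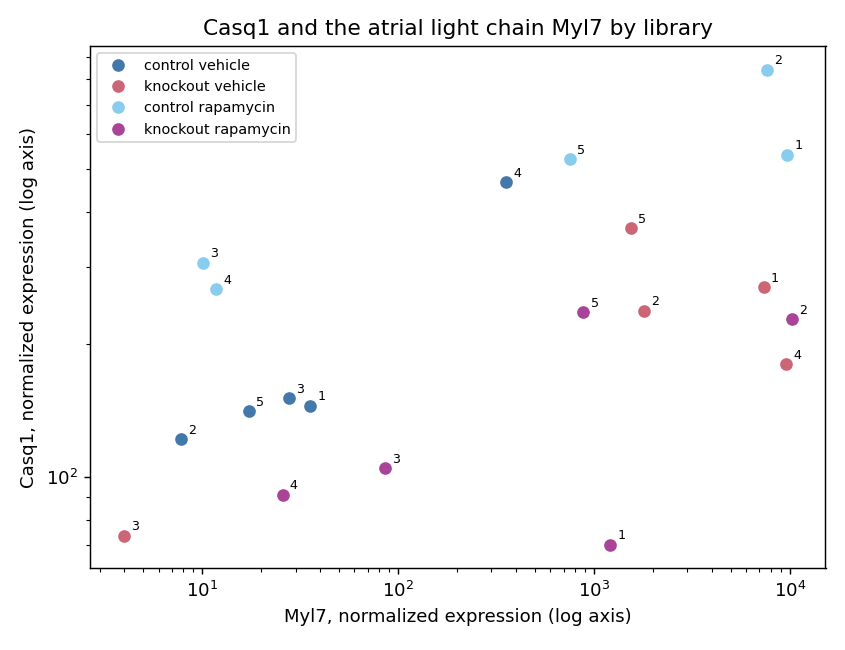
Casq1 against Myl7 in the 20 libraries (both axes logarithmic, normalized expression), coloured by group and numbered by replicate. Control rapamycin 2 has the highest Casq1, 840, at a Myl7 of 7668, and knockout rapamycin 1 has the lowest Casq1, 70.2, at a Myl7 of 1211.

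The 6 genes most like Casq1 in these deviations, among 10337 genes with a mean of at least 100 units, were Comp (r = 0.81), Anxa2 (r = 0.80), Ppapdc2 (r = 0.80), Ecm1 (r = 0.79), Scd2 (r = 0.79) and C1qtnf6 (r = 0.79). Comp and Ecm1 encode proteins of the extracellular matrix, Anxa2 a calcium-dependent membrane-binding annexin and Scd2 a fatty acid desaturase. Over the 12 tested genes of the fast-fibre and the slow or fetal lists, r with Casq1 had a median of 0.16 and was above 0 for 8. It ran from -0.70 for Cacna1s through -0.28 for Tnnt1, -0.22 for Myh1 and 0.13 for Scn4a to 0.61 for Myl1 and 0.62 for Mybpc2. Mybpc2 was between 363 and 622 units in control rapamycin and between 172 and 460 in knockout rapamycin hearts.

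The members did not vary as one set. Over the 15 pairs of the 6 tested genes, r of the deviations ran from -0.45 to 0.85 with a median of 0.09. The highest was Tnni2 with Mylpf (r = 0.85, rho 0.80), which was 0.77 without the 2 libraries farthest out in Mylpf. Both genes have short transcripts, and the part of the libraries' length lean in this r was not tested. Among the 10337 genes with a mean of at least 100 units, a limit that leaves out Mylpf, the genes most like Tnni2 were 2810432D09Rik (r = 0.86), Dedd (r = 0.85), Rhbdd3 (r = 0.84), Trp53i13 (r = 0.83), St7 (r = 0.82) and Rmnd1 (r = 0.82). Tnni2 with Myl7 had r = 0.15.

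Ryr1, Tnnt3 and Tnnc2 were too low to test. Ryr1 ran from 0 to 8.61 units, at most 6 reads in a library, and was listed at 0 in 1 library, control rapamycin 1. Tnnt3 ran from 0 to 9.81 units, at most 5 reads, and was listed at 0 in 3 libraries. Tnnc2 ran from 0 to 17.2 units, at most 10 reads, with its highest value in knockout rapamycin 4 and a 0 in knockout vehicle 3. A count of 0 allows up to 3 reads, so none of these zeros shows absence.

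Group means of Ryr1 were 3.51 ± 1.60 in control vehicle, 4.59 ± 2.42 in knockout vehicle, 3.47 ± 2.16 in control rapamycin and 5.88 ± 2.98 in knockout rapamycin hearts. For Tnnt3 they were 3.94 ± 4.22, 2.13 ± 0.82, 3.64 ± 2.30 and 2.81 ± 2.17 in the same order, and for Tnnc2 4.97 ± 2.12, 3.80 ± 3.16, 4.27 ± 3.75 and 7.25 ± 5.83 (SD, n = 5). All groups overlapped, and no difference was detectable at this depth. Tnni2 and Tnnt3 lie on one chromosome with 1 protein-coding gene, Lsp1, between them in the RefSeq order, yet Tnni2 averaged 60.1 and Tnnt3 2.99 units per kilobase.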

How the data were processed

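Poly(A) RNA libraries were prepared with a TruSeq kit from ventricle RNA, per the labels' protocols. The submitters' processing notes name RSEM, SAMtools, Picard 1.64 and the mm9 build. The deposited signal values are RSEM estimates per gene that the authors scaled to the upper quartile, which lay at 996.6 to 1000 in every library. Between 88.2% and 90.0% of low values were whole multiples of 1 read within 0.05 reads, too few for a count test. Genes with at least 10 units in at least 5 libraries were tested with limma 3.58.1 (R 4.3.3, intensity trend) on log2(value + 1), all 20 libraries in 1 fit, Benjamini-Hochberg adjusted over all genes tested, threshold 0.05. Fold changes on this scale understate low genes. The fit was also run on simulated data in which genes varied independently, without the library-wide deviations seen here. Levels per kilobase used median transcript lengths of GENCODE vM21, and 9 of 9 genes matched. Likeness is Pearson's r of deviations from group means. Named were the 9 genes, their heart counterparts, called or most abundant genes of fixed lists, and the 6 genes most like Casq1 and Tnni2. Members and lists were chosen with earlier results of these data known. Alternatives changed the pseudocount, filter, scaling, pool term, replicate block and libraries left out. The covariates Myl7 and long-minus-short score were added after the data were seen.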

Additional observations from a re-analysis of the deposited data

Results flagged for a closer look

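In 36 groups of 5 values (the 9 genes in 4 groups), 2 held a library far from the rest of its group, where chance gives about 1 in 20. Casq1 in control vehicle library 4 was at 466 units, with the other 4 libraries between 122 and 151. That library had the highest Myl7 of its group, 356 units, and the second highest Casq1 of any vehicle library lay at 367. Actn3 in control rapamycin library 2 was at 49.3 units, below the other 4 libraries at 62.3 to 67.0. The part of atrial tissue in either value was not tested.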

How the results depend on the processing

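Apart from leaving out 1 library at a time, the alternatives changed the sign of 7 of 256 member values and moved none past the threshold. The changes of sign were Casq1 in knockout and control under vehicle without control vehicle 1 and 3 (-0.0065) and with Myl7 as a covariate (-0.58), Actn3 in that comparison after quantile normalization (-0.0431), and Mylpf under rapamycin in control hearts with a pool term (0.0304), without control vehicle 1 and 3 (0.27) and with the long-minus-short covariate (0.32). The remaining one was Actn3 under rapamycin in knockout hearts, not tested there (0.0188 after quantile normalization). The cause was not tested. Leaving out 1 library at a time gave 13 changes of sign in 240 values: Casq1 ranged from -0.0527 to 0.52, Atp2a1 from -0.32 to 0.0314 and Pvalb from -0.81 to 0.25 under vehicle, and Pvalb from -0.0938 to 1.06 and Mylpf from -0.30 to 0.19 under rapamycin in control hearts. Under rapamycin in knockout hearts Atp2a1 ranged from -0.0346 to 0.31, Actn3 from -0.11 to 0.0244 and Pvalb from -1.01 to 0.0998. Tnni2 under vehicle ranged from -1.37 to -1.02 and passed the threshold in 3 of these fits.

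Of all genes, 33 were called between knockout and control under vehicle (27 higher, 6 lower). The count was 56 with a pool term, 3 with only those groups in the fit, 4 without control vehicle 1 and 3, 8 with Myl7 and 6 with the long-minus-short score as covariate. Quantile normalization gave 25 higher and 22 lower. Leaving out 1 library gave 8 to 3089 calls: 8, 9, 343 and 3089 without control vehicle 1, 3, 4 and 5, and 11, 8 and 2565 without knockout vehicle 1, 2 and 5. Between knockout and control under rapamycin 3 genes were called (3 to 4 with 1 library left out). Between rapamycin and vehicle in knockout hearts 1 was called (0 to 2 with 1 left out), 0 with a pool term, Myl7, only those groups or either rescaling (quantile, median-ratio), and 232 with the long-minus-short covariate. Genes of low depth (Ryr1, Tnnt3, Tnnc2) fell under the filter, and only Casq1 passes a mean of 100 units.

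Same-numbered libraries did not deviate together (r from -0.52 to 0.43), so no pairing by number was seen. This r over all genes cannot exclude a pairing that leaves little trace in it. With the replicate number as a block, 49 genes were called under vehicle, 0 for rapamycin in control hearts, 3 for knockout under rapamycin and 0 for rapamycin in knockout hearts, and no member was called.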
